A study of Bos taurus with 8 samples.

Results

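The genes described here encode the mitochondrial protein import machinery and the mitochondrial carrier family of solute transporters. Levels are in CPM (reads per 1000000 reads, as scaled in the deposited table). The set is every gene whose symbol starts with TIMM, TOMM or SLC25, with a mean of at least 1 CPM over the 8 libraries. Among 66 such symbols, 60 met that minimum: 15 of 15 TIMM genes, 9 of 9 TOMM genes and 36 of 42 SLC25 genes, among 12129 genes that met it in all. Just inside it lay SLC25A23, with a mean of 1.07 CPM, and SLC25A43, with 1.12 CPM. Just outside lay SLC25A29, with 0.589 CPM, and SLC25A25, with 0.380 CPM. The other 4 symbols below it were SLC25A42, SLC25A34, SLC25A41 and SLC25A48.

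The transcripts were measured by RNA sequencing in Bos taurus embryos fertilised in vitro with Holstein semen, from oocytes of slaughterhouse ovaries. Edited embryos, described as RPL12 A148G, had been injected as zygotes, in the cytoplasm, with the prime editor PEmax and a guide RNA. PEmax is a Cas9 nickase joined to a reverse transcriptase, and RPL12 encodes a protein of the large ribosomal subunit. The sample titles call these embryos base edited. Control and edited embryos of the 4-cell and of the 8-cell stage made 4 groups with 2 libraries each, and each library was a pool of 5 embryos. The labels do not say whether controls were injected, whether the 2 pools of a group came from separate fertilisations, or what share of alleles was edited, so p-values measure only the spread between these pools. The labels give oocytes as the source of the 4-cell samples, and the titles, which say 4-cell embryo, were followed.

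Nearly all mitochondrial proteins are made in the cytosol and enter through the translocase of the outer membrane, the TOM complex. The TIM23 complex then takes proteins with a presequence into the matrix or inner membrane, while the small TIM chaperones of the intermembrane space hand carrier proteins to the TIM22 complex, which inserts them into the inner membrane. The SLC25 proteins are the main clients of that carrier pathway and move nucleotides, phosphate, amino acids, carboxylates and cofactors across the inner membrane. Mitochondria of oocytes and early embryos are inherited from the egg, and cleavage-stage embryos live largely on transcripts stored there until the embryonic genome is activated.

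Libraries held between 33527531 and 35122409 reads, at which 3 reads correspond to 0.0858 to 0.0899 CPM. The embryo labels were compared with 14 oocyte and early embryo markers, with BTG4, GDF9 and ZP2 among them, all of which passed the minimum. They summed to 19076 and 25470 CPM in 4-cell controls and 48806 and 57535 CPM in 4-cell edited libraries, and to 36762 to 54923 CPM at the 8-cell stage. BTG4 alone held 12016 and 14925 CPM in the 4-cell controls and 28841 and 37563 CPM in the 4-cell edited libraries. At that stage 10 of the 14 had a log2 fold change above 0 and 4 below 0. Limma called 6 of the 14 higher (42.9%, beside 18.9% of all genes) and 0 lower (0 also at an unadjusted p-value under 0.05) in 4-cell edited embryos. In 8-cell edited embryos 2 of the 14 were called higher (14.3%, beside 1.08% of all genes). Of 20 cumulus and granulosa markers, which belong to the somatic cells around the oocyte, 18 passed the minimum. Their summed level was 1816 and 1428 CPM in the 4-cell control libraries, and 467 and 514 CPM in the edited ones of that stage. In 8-cell embryos it was 640 and 934 CPM in controls against 495 and 468 CPM in edited libraries. The receptor LHCGR was at 0 in 5 libraries and the transcription factor FOXL2 at 0 in 4. CYP11A1, a steroidogenic enzyme, ranged from 3.33 CPM in an edited to 227 CPM in a control library. HAS2 went the other way, at 24.3 and 55.4 CPM in 4-cell controls and 132 and 124 CPM in 4-cell edited libraries. In that comparison 4 of the 18 had a log2 fold change above 0 and 14 below 0. Of the 18, 12 were called lower (66.7%, beside 25.8% of all genes) and 1 higher in 4-cell edited embryos, and 5 lower (27.8%, beside 14.5% of all genes) in 8-cell edited embryos. Both marker lists thus moved with the groups compared below, and their part in the results was not tested beyond the fit with a marker covariate given beside them. In pools, fewer cells of a type and less RNA per cell cannot be told apart.

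The first question was how these transcripts differed between edited and control embryos at the 4-cell stage. Of the 60 genes 12 were higher and 20 lower in edited embryos, by limma on log2(CPM + 1) with adjustment over all 12129 genes at an adjusted p-value under 0.05. That was 20% higher and 33.3% lower, beside 18.9% higher and 25.8% lower of all genes tested, so 53.3% of these genes were called where 44.7% of all genes were. The share called was therefore near that of the transcriptome. The median log2 fold change was -0.26, against -0.02 for all genes. The edited and control libraries did not overlap in 50 of the 60 genes (83.3%, beside 71% of all genes), the 32 called ones among them. The largest decreases were those of the phosphate carrier SLC25A3 and of SLC25A39, and the largest increases those of the receptor relative TOMM20L and the NAD carrier SLC25A51.

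**Figure D1:**
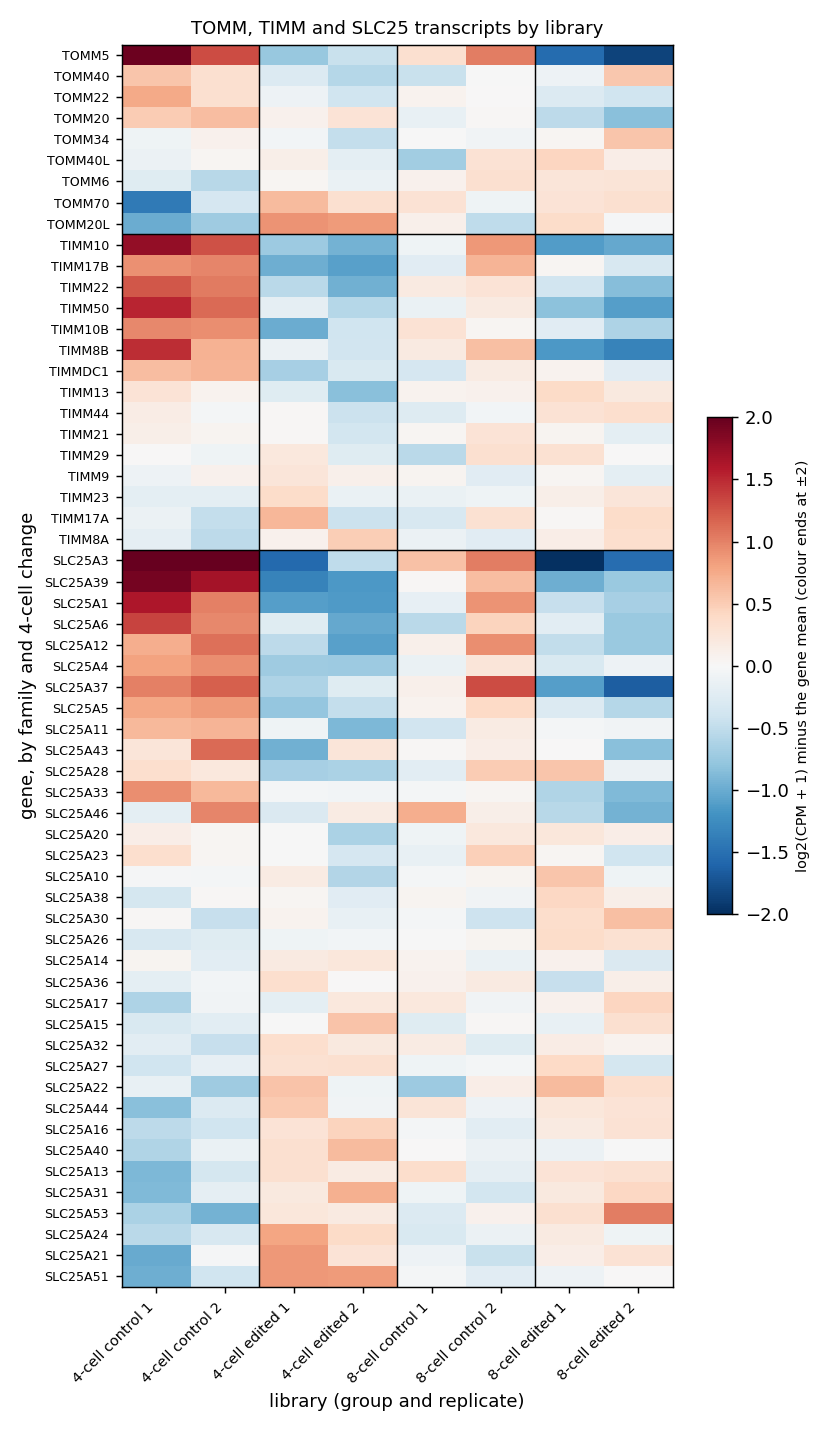
Log2(CPM + 1) of 59 of the 60 genes (rows, grouped as TOMM, TIMM and SLC25 and ordered by 4-cell change) in the 8 libraries (columns, by group and replicate), with each gene's mean subtracted and colours ending at ±2. The 20 genes called lower at the 4-cell stage appear red in both 4-cell control libraries, except TIMM13, near white in the second. They are mostly blue in the edited ones. The 12 called higher are blue or near white in those controls and mostly red in 4-cell edited libraries.

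The outer membrane translocase moved in both directions at the 4-cell stage. TOMM5, a small subunit of the TOM complex, stood at 478 and 304 CPM in the control libraries and at 71.6 and 89.2 CPM in the edited ones. Its log2 fold change was -2.24 (SE 0.28), with a limma adjusted p-value of 1.56e-05. TOMM70, the receptor that binds carrier precursors and their chaperones, stood at 155 and 327 CPM in controls and at 643 and 516 CPM in edited embryos. Its libraries did not overlap either, although the 2 control libraries differed by more than 2-fold, and its log2 fold change was 1.35 ± 0.29, SE (adjusted p-value by limma 0.00129). TOMM20L, a relative of the presequence receptor TOMM20, stood at 2.71 ± 0.517 CPM (SD, n = 2) in controls and at 11.2 ± 0.220 CPM (SD, n = 2) in edited embryos, a log2 fold change of 1.72. The central receptor TOMM22 was lower, at 64.2 ± 13.9 CPM in controls and 36.4 ± 5.39 CPM in edited embryos, a log2 fold change of -0.79 with a limma adjusted p-value of 0.0209.

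The other 5 TOMM genes were not called at this stage. The channel protein TOMM40 stood at 12.7 ± 1.65 CPM in controls and 6.55 ± 1.08 CPM in edited embryos, with a limma adjusted p-value of 0.0646. TOMM20, the receptor for presequences, had a log2 fold change of -0.39 and TOMM6, another small subunit, one of 0.35. TOMM40L, a relative of TOMM40, had 0.01, and TOMM34, a cytosolic co-chaperone of import, -0.26. Thus within the 1 complex the small subunits TOMM5 and TOMM6 and the receptors TOMM22 and TOMM70 had values of opposite sign.

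The TIMM genes had the highest share of lower calls of the 3 families at the 4-cell stage. Of 15, 8 were lower (53.3%) and 1 higher (6.67%), beside 25.8% and 18.9% of all genes. The difference between families was not tested. The lists of other import genes and of other channels and transporters, given below, had 51.9% and 55.6% lower. Of the TIM22 pathway, the channel protein TIMM22 stood at 141 and 123 CPM in controls and 40.3 and 29.9 CPM in edited embryos, with a log2 fold change of -1.89 ± 0.26, SE (adjusted p-value by limma 3.33e-05). The chaperone TIMM10 stood at 189 and 135 CPM in controls and 32.9 and 28.1 CPM in edited embryos, with a log2 fold change of -2.36 ± 0.30, SE (adjusted p-value by limma 1.96e-05). Both edited libraries were thus more than 3-fold below the lower control library for each of these genes. Its relatives TIMM10B and TIMM8B had log2 fold changes of -1.63 and -1.33, and TIMM13 had -0.71, all called lower. TIMM8A, which forms a hexamer with TIMM13, was the TIMM gene called higher, from 202 ± 33.4 to 315 ± 62.0 CPM (log2 fold change 0.63, limma adjusted p-value 0.0291). TIMM9, the partner of TIMM10, stood at 9.49 ± 0.924 CPM in controls and 10.9 ± 0.778 CPM in edited embryos, and TIMM29, a TIM22 subunit, at 6.92 ± 0.375 and 7.18 ± 1.79 CPM. Neither was called, so the partners TIMM9 and TIMM10 had log2 fold changes of 0.18 and -2.36.

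In the TIM23 translocase 2 of 6 genes were lower (33.3%, beside 25.8% of all genes). TIMM17B, a channel-forming subunit, stood at 202 and 211 CPM in controls and at 53.6 and 49.9 CPM in edited embryos (log2 fold change -1.98 ± 0.28, SE; adjusted p-value by limma 4.1e-05). Its paralog TIMM17A stood at 48.7 and 37.7 CPM in controls and at 84.3 and 39.1 CPM in edited embryos and was not called. The log2 ratio of TIMM17A to TIMM17B within a library, taken on CPM + 1, was -2.03 and -2.45 in the controls and 0.65 and -0.35 in the edited embryos. TIMM50, the receptor that takes over precursors from TOM, had a log2 fold change of -1.70. TIMM23, the other channel protein, had 0.31, TIMM21, which contacts TOM, -0.25, and TIMM44, which anchors the import motor, -0.26, and these 3 were not called. TIMMDC1 belongs by name to this family but is an assembly factor of respiratory complex I, and it was lower at 14.8 ± 2.77 CPM against 33.3 ± 0.980 CPM in controls (log2 fold change -1.13).

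**Figure D2:**
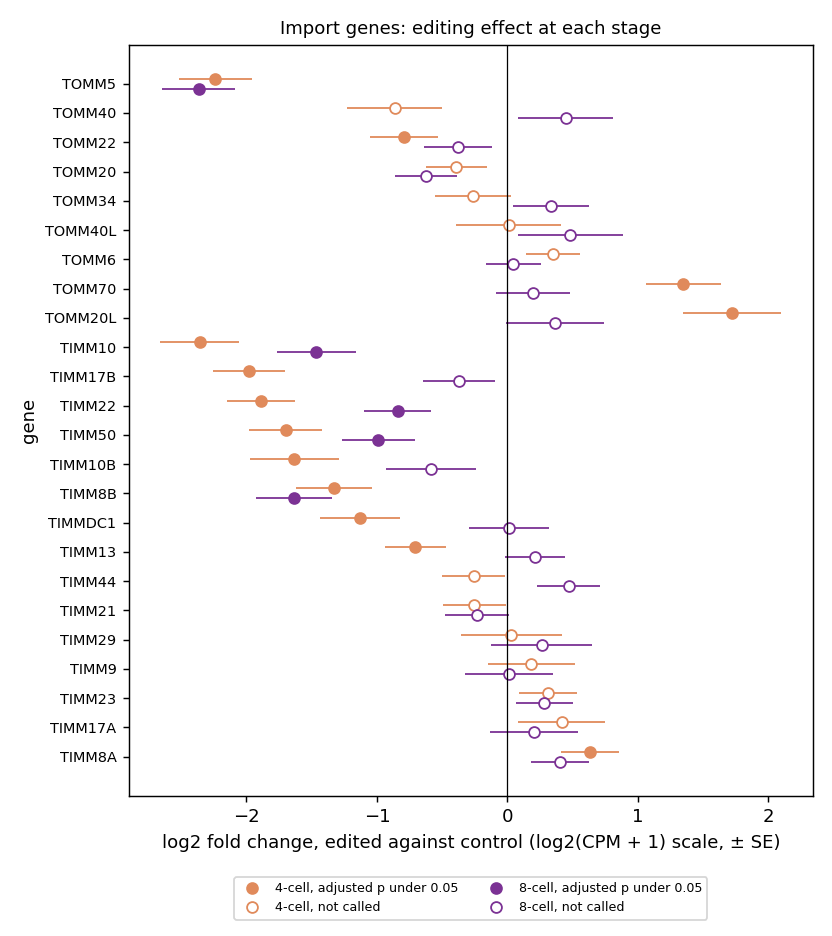
Log2 fold change of edited against control embryos (x axis, log2(CPM + 1) scale, bars ± SE) for the 9 TOMM and 15 TIMM genes (y axis) at the 4-cell and 8-cell stages; filled points passed an adjusted p-value under 0.05. TOMM5, TIMM10, TIMM22, TIMM50 and TIMM8B were called lower at both stages, while TOMM70 and TOMM20L lay above 1 at the 4-cell stage and near 0.2 and 0.37 at the 8-cell stage.

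Among the carriers, 9 of 36 were higher (25%) and 10 lower (27.8%) in 4-cell edited embryos, beside 18.9% and 25.8% of all genes. SLC25A3 brings phosphate and copper into the matrix. It stood at 382 and 338 CPM in controls and at 24.2 and 51.2 CPM in edited embryos, a log2 fold change of -3.31 ± 0.36, SE (adjusted p-value by limma 4.13e-06). The ADP/ATP carriers, which exchange matrix ATP for cytosolic ADP, fell for 3 paralogs and rose for the fourth. SLC25A4 stood at 139 and 151 CPM in controls and at 48.1 and 47.4 CPM in edited embryos (log2 fold change -1.58), and SLC25A5 had a log2 fold change of -1.44. SLC25A6, which was added after its values were seen, had one of -1.78. SLC25A31, the paralog known from germ cells, stood at 30.1 and 49.1 CPM in controls and at 64.2 and 92.0 CPM in edited embryos (log2 fold change 0.98 ± 0.28, SE; adjusted p-value by limma 0.0106).

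The within-library log2 ratio of SLC25A31 to SLC25A4, also on CPM + 1, was -2.17 and -1.60 in the 4-cell controls and 0.41 and 0.94 in the 4-cell edited libraries. At the 8-cell stage it was -0.44 and -1.09 in controls and 0.01 and 0.03 in edited libraries. The ratio was thus higher in both edited libraries than in both controls at each stage. Both pairs of paralogs were chosen after their values were seen, and the ratios were given no test. SLC25A24, a calcium-regulated carrier of ATP-Mg and phosphate, was also higher, at 64.5 ± 13.1 against 31.2 ± 3.41 CPM, and SLC25A23 of the same kind stood at 0.813 ± 0.282 against 1.33 ± 0.339 CPM and was not called.

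Of 9 carriers of other nucleotides and cofactors 2 were lower and 2 higher (22.2% each, beside 25.8% and 18.9% of all genes). SLC25A39, which imports glutathione, had the smallest p-value of the 60 genes: it stood at 110 and 92.2 CPM in controls and at 10.7 and 12.3 CPM in edited embryos (log2 fold change -3.03 ± 0.29, SE; adjusted p-value by limma 1.59e-06). SLC25A40, its close paralog, was higher at 31.7 ± 5.06 against 17.5 ± 4.21 CPM (log2 fold change 0.83). SLC25A51, which imports NAD, stood at 33.0 and 50.0 CPM in controls and at 121 and 120 CPM in edited embryos, with a log2 fold change of 1.54 ± 0.25, SE (adjusted p-value by limma 0.000155). SLC25A33, a pyrimidine nucleotide carrier, was lower (log2 fold change -0.83) and SLC25A16, linked to coenzyme A supply, higher (0.82). Not called were SLC25A26, SLC25A32, SLC25A36 and SLC25A17, with log2 fold changes from 0.21 to 0.60. SLC25A17, at 510 ± 136 CPM in 4-cell controls, is a peroxisomal and not a mitochondrial carrier.

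Of 5 carboxylate and acyl carriers, the citrate carrier SLC25A1 stood at 35.3 and 23.0 CPM in controls and at 4.54 and 4.45 CPM in edited embryos (log2 fold change -2.43, limma adjusted p-value 0.000127). The oxoglutarate carrier SLC25A11 was lower by 1.15 on the log2 scale, whereas SLC25A21, the carrier of oxoadipate, was higher by 1.08 on that scale, at 6.55 ± 2.19 against 2.69 ± 1.71 CPM. The 2 aspartate-glutamate carriers of the malate-aspartate shuttle moved in opposite directions. SLC25A12 stood at 51.1 and 66.4 CPM in controls and at 21.0 and 13.9 CPM in edited embryos (log2 fold change -1.71), and SLC25A13 at 52.8 ± 14.4 CPM in controls and at 94.8 ± 7.38 CPM in edited embryos (log2 fold change 0.86, limma adjusted p-value 0.0136). SLC25A44, a carrier of branched-chain amino acids, was higher, at 48.6 ± 14.2 against 28.0 ± 7.90 CPM, with a limma adjusted p-value of 0.0414. The mitoferrin SLC25A37, which brings iron to the matrix, was lower at 1.85 ± 0.529 against 7.16 ± 0.781 CPM. SLC25A53 was higher at 16.8 ± 0.361 against 8.04 ± 1.42 CPM. The 3 carriers related to uncoupling proteins, SLC25A14, SLC25A27 and SLC25A30, were not called and had log2 fold changes of 0.18 to 0.60. The remaining 8 carriers were not called either: SLC25A43 had the lowest log2 fold change, -1.05, with 0 reads in the first 4-cell edited library, and SLC25A22, a glutamate carrier, the highest, 0.67. Between them lay the second mitoferrin SLC25A28 (-0.92), SLC25A46 (-0.46), the carnitine carrier SLC25A20 (-0.41), the dicarboxylate carrier SLC25A10 (-0.17), the glycine carrier SLC25A38 (0.07) and the ornithine carrier SLC25A15 (0.54).

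**Figure D3:**
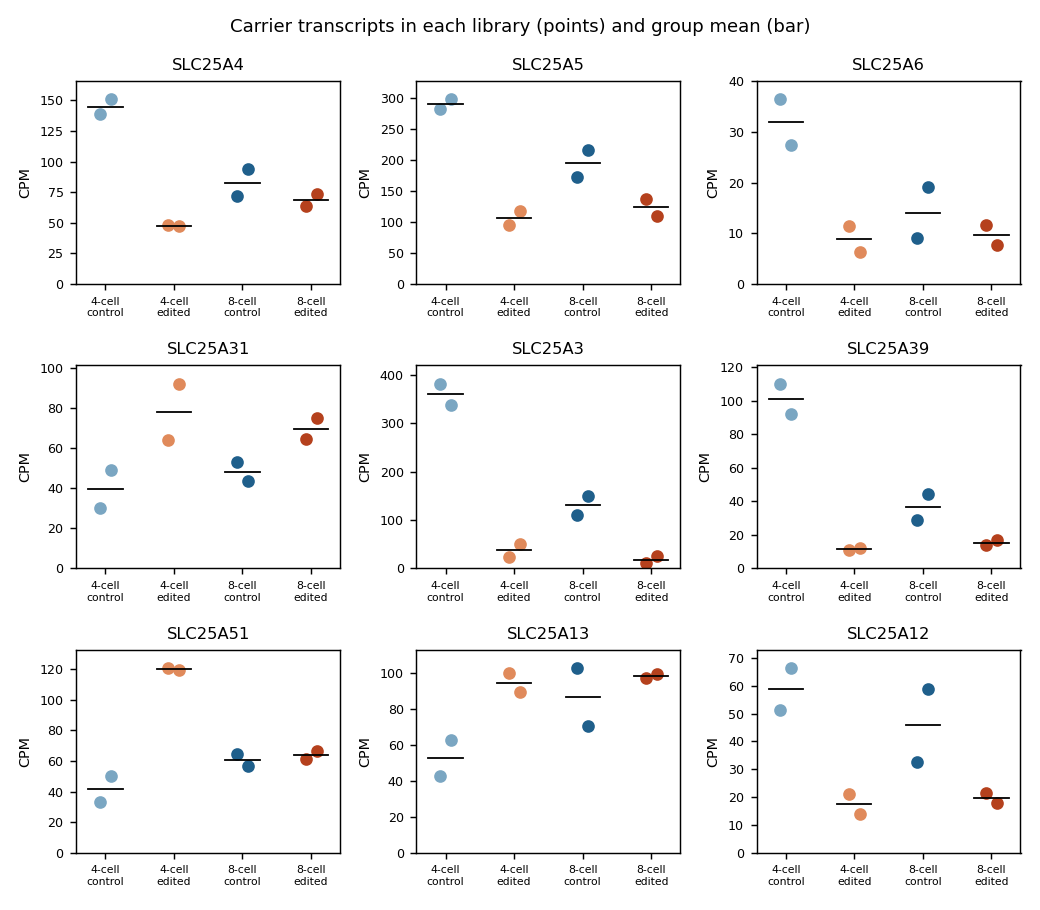
CPM (y axes, each starting at 0) of 9 carrier genes in each library (points) and the group mean (bar), for control and edited embryos at both stages, with 2 libraries a group. SLC25A4, SLC25A5, SLC25A6, SLC25A3, SLC25A39 and SLC25A12 have their highest group mean in the 4-cell controls, and SLC25A31, SLC25A51 and SLC25A13 their lowest.

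These 4-cell calls rest on control libraries that also held the highest level of cumulus and granulosa markers. With the mean log2 level of the 18 markers as a covariate limma called 0 of the 60 genes at the 4-cell stage, and 4 had an unadjusted p-value under 0.05. The fold changes of 30 of the 32 called genes kept their sign, at a median of 0.764 times their size without the covariate, while their standard errors were 2.32 to 2.86 times as large. TIMM22 had a log2 fold change of -1.92 (SE 0.71) in that fit and TIMM8A one of 0.64 (SE 0.62), close to -1.89 and 0.63 without it, whereas TIMM17B had -0.71 against -1.98 and TIMMDC1 -0.02 against -1.13. That mean was 4.58 and 4.72 in the controls, against 2.89 and 3.38 after editing, so covariate and group largely coincide.

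At the 8-cell stage 9 of the 60 genes were lower in edited embryos and 0 were higher (limma; 1 gene was higher at an unadjusted p-value under 0.05, and edgeR and DESeq2 called 0 higher). This was 15% of these genes beside 15.6% of all genes called, 14.5% of them lower and 1.08% higher, so the share was that of the transcriptome. The 9 were TOMM5, TIMM8B, TIMM10, TIMM22, TIMM50, SLC25A3, SLC25A12, SLC25A37 and SLC25A39, and all were among the 31 genes whose groups did not overlap (51.7%, beside 60.4% of all genes). The median of the 60 log2 fold changes was 0.06, and that of all genes 0.00458.

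TOMM5 stood at 152 and 250 CPM in the 8-cell controls and at 41.4 and 33.2 CPM in the edited libraries (log2 fold change -2.37 ± 0.28, SE; adjusted p-value by limma 2.67e-05). SLC25A3 stood at 111 and 150 CPM in controls and at 11.2 and 24.7 CPM in edited embryos (log2 fold change -2.87 ± 0.36, SE; adjusted p-value by limma 3.76e-05). Both genes were thus more than 3-fold lower in each edited library than in the lower control library. TIMM8B stood at 52.6 and 70.8 CPM in controls and 20.4 and 17.8 CPM in edited embryos (log2 fold change -1.63, limma adjusted p-value 0.000799). TIMM10 stood at 51.7 and 102 CPM in controls and 24.9 and 26.5 CPM in edited embryos (log2 fold change -1.46, limma adjusted p-value 0.00272).

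The mitoferrin SLC25A37 stood at 3.09 and 8.40 CPM in 8-cell controls and at 0.777 and 0.210 CPM in edited embryos, a log2 fold change of -2.08 (limma adjusted p-value 0.00317). The 2 libraries of each group were apart for this gene by more than 2-fold. SLC25A39 (log2 fold change -1.18), SLC25A12 (-1.13), TIMM50 (-0.99) and TIMM22 (-0.84) were also lower, with limma adjusted p-values of 0.00958 to 0.0351. Among those called higher in 4-cell edited embryos, TOMM70 stood at 449 ± 84.7 CPM in 8-cell controls and 509.9 ± 13.3 CPM in edited embryos. SLC25A51 stood at 60.4 ± 5.5 and 64.1 ± 3.55 CPM, SLC25A31 at 48.1 ± 6.63 and 69.7 ± 7.56 CPM, and none of the 3 was called.

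Without the second 8-cell control library, which had the higher marker sum of 934 CPM, 3 genes were called lower at the 8-cell stage: SLC25A3, TOMM5 and TIMM8B. With the marker covariate 0 were called (limma; 3 genes at an unadjusted p-value under 0.05). In that fit the 9 fold changes kept their sign, at a median of 0.643 times their size, and their standard errors were 1.81 to 2.16 times as large.

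The genes called at the 8-cell stage were all among those called at the 4-cell stage, in the same direction. The 9 shared genes make 45% of the 20 lower at the 4-cell stage and 100% of the 9 lower at the 8-cell stage. Over all genes tested the 1510 genes lower at both stages make 48.2% and 85.6% of those lists. The comparisons share no library but share an estimate of the spread. The log2 fold changes had the same sign at both stages for 48 of 60 genes (80.0%), beside 72.8% of all genes tested. For 45 of 60 genes the absolute log2 fold change was larger at the 4-cell stage (75%, beside 69% of all genes).

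**Figure D4:**
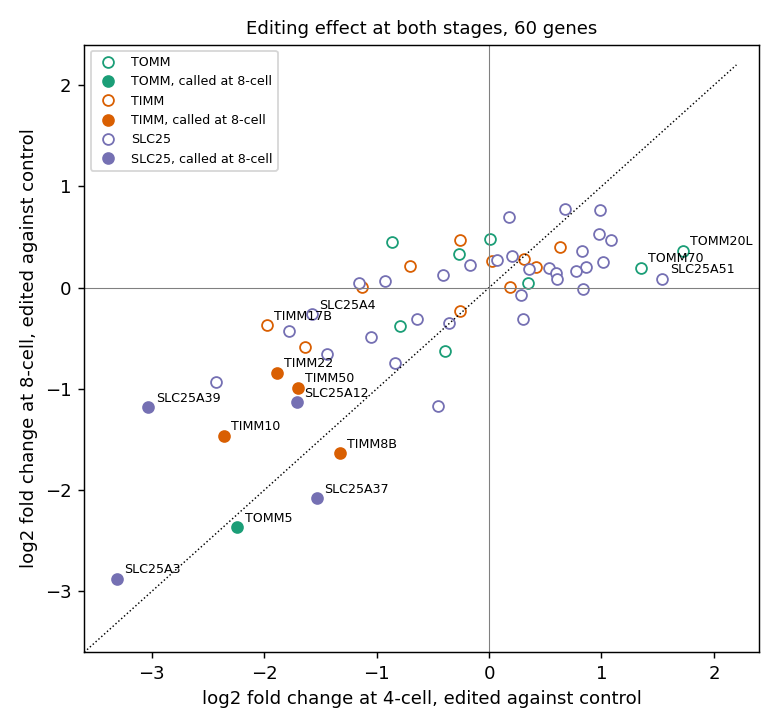
Log2 fold change of edited against control embryos at the 4-cell stage (x axis) and at the 8-cell stage (y axis) for the 60 genes, on the log2(CPM + 1) scale; filled points were called at the 8-cell stage and the dotted line marks equal values. SLC25A3, TOMM5, TIMM8B and SLC25A37 lie near the line or below it, while SLC25A39 and TIMM17B lie well above it, at 8-cell values of -1.18 and -0.37.

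The change of the editing effect between stages was tested by itself, as the 8-cell minus the 4-cell log2 fold change. Limma called 4 of the 60 genes (6.67%), where 3.96% of all genes were called, 1.95% with a positive and 2% with a negative difference. The effect was less negative at the 8-cell stage for SLC25A39 (difference 1.85, SE 0.41, adjusted p-value 0.0316), TIMM17B (1.60, SE 0.39, 0.0379) and SLC25A4 (1.32, SE 0.33, 0.0393). It was less positive for SLC25A51 (-1.45, SE 0.36, 0.0382). TIMM17B stood at 90.8 and 172 CPM in 8-cell controls and at 109.6 and 84.9 CPM in edited libraries, which overlap, in contrast to the 4-cell groups. These 4 calls were lost when edgeR was used (0 called, 15 of 60 at an unadjusted p-value under 0.05) and when no minimum level was applied (0 called, 17 at an unadjusted p-value under 0.05). They were also lost without 6 of the 8 libraries in turn: the first 4-cell control, either 4-cell edited, the first 8-cell control or either 8-cell edited library.

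Stage itself was compared within controls. From the 4-cell to the 8-cell stage 7 genes were lower and 1 higher, 13.3% of the 60 beside 9.02% of all genes (6.27% lower and 2.75% higher). With TMM factors the split was 5 lower and 0 higher. The comparison shares its 4-cell libraries with the 4-cell editing comparison, so the 2 sets of values are given side by side only. SLC25A39 fell from 101 ± 12.6 to 36.6 ± 10.9 CPM (log2 fold change -1.47 ± 0.29, SE; adjusted p-value by limma 0.0134) and SLC25A3 from 360 ± 31.3 to 130 ± 27.9 CPM (-1.47). TIMM50 had -1.30, TIMM10 -1.13, TOMM5 -0.96, TIMM22 -0.92 and SLC25A4 -0.81. TOMM70 was higher, from 241 ± 122 to 449 ± 84.7 CPM (log2 fold change 0.98, limma adjusted p-value 0.0446). No member was called by limma without the first 4-cell or the first 8-cell control library (11 and 6 genes at an unadjusted p-value under 0.05) or by edgeR (22 genes). The marker sums of these libraries fell from 1816 and 1428 to 640 and 934 CPM over the same interval.

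In edited embryos 3 of 60 genes were lower at the later stage and 0 were higher (limma; 5 genes were higher at an unadjusted p-value under 0.05, and edgeR called 0 and DESeq2 2 higher). That was 5% of the 60, beside 5.18% of all genes, 3.73% of them lower and 1.45% higher. TOMM5 went from 80.4 ± 12.4 to 37.3 ± 5.78 CPM (log2 fold change -1.09, limma adjusted p-value 0.0367) and TOMM20 from 80.2 ± 7.50 to 43.9 ± 6.87 CPM (-0.86, 0.0459). SLC25A51 went from 120 ± 0.779 to 64.1 ± 3.55 CPM (-0.90, 0.0497). With the replicate number as a block TOMM5 alone remained called, and edgeR called 0 (12 genes at an unadjusted p-value under 0.05). Without the second 4-cell or either 8-cell edited library 0 were called (7 to 9 at an unadjusted p-value under 0.05). TIMM17B (log2 fold change 0.89, limma adjusted p-value 0.0748), SLC25A28 (0.87, 0.222) and TIMM13 (0.82, 0.0517) had the highest values. TIMM13 was the gene called under quantile normalization, where the split became 1 higher and 0 lower.

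The import genes without a TIMM or TOMM symbol were counted as a list, which also held matrix folding factors such as HSPD1. Of 27 tested of 28 listed, 3 were higher and 14 lower in 4-cell edited embryos, and 7 were lower at the 8-cell stage. That was 11.1% higher and 51.9% lower, beside 18.9% and 25.8% of all genes, and 25.9% lower at the 8-cell stage, beside 14.5%. MTX1, a metaxin of the outer membrane sorting machinery, stood at 59.3 ± 2.90 CPM in 4-cell controls and 4.47 ± 2.15 CPM in edited embryos (log2 fold change -3.52, limma adjusted p-value 6.02e-06). SAMM50, the core of that machinery, had -1.75, and GFER, the sulfhydryl oxidase that works with CHCHD4 on small TIM proteins, -2.47. The inner membrane peptidase subunits IMMP2L and IMMP1L were higher by 1.29 and 0.84, as was the nucleotide exchange factor GRPEL2 by 0.78. In 8-cell edited embryos the matrix chaperonin HSPD1 (log2 fold change -1.80) and the metaxins MTX2 (-1.72) and MTX1 (-2.38) had the smallest p-values. TIMM10 and GFER, both of the intermembrane space route, were each lower in 4-cell edited embryos, as were TIMM8B, TIMM10B and TIMM13. In contrast CHCHD4 (-0.42) and TIMM9 (0.18) were not called, and TIMM8A (0.63) was called higher.

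Other mitochondrial channels and transporters were listed as well, with their regulators and the membrane protein TMEM11, and 18 of 20 were tested. In 4-cell edited embryos 10 were lower, TMEM11 among them, and 2 higher, and at the 8-cell stage 5 were lower. That was 55.6% lower and 11.1% higher, beside 25.8% and 18.9% of all genes, and 27.8% lower at the 8-cell stage, beside 14.5%. VDAC2, a pore of the outer membrane, went from 691 ± 78.0 CPM in 4-cell controls to 129 ± 46.2 CPM in edited embryos (log2 fold change -2.46, limma adjusted p-value 2.64e-06). The calcium uniporter regulator MICU2 had -2.19 and MPC2 of the pyruvate carrier -1.76, while its partner MPC1 had -0.03 and was not called. UCP3, an uncoupling protein and itself an SLC25 family member under another symbol, was higher by 1.68, and the transporter ABCB10 by 0.91. UCP2, another uncoupling protein, was called lower (log2 fold change -1.48, limma adjusted p-value 0.0100), at 0.364 CPM against 2.82 CPM in controls. At the 8-cell stage VDAC2 (log2 fold change -2.25), MICU2 (-1.92) and SFXN1, a serine transporter (-1.34), were lower.

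**Figure D5:**
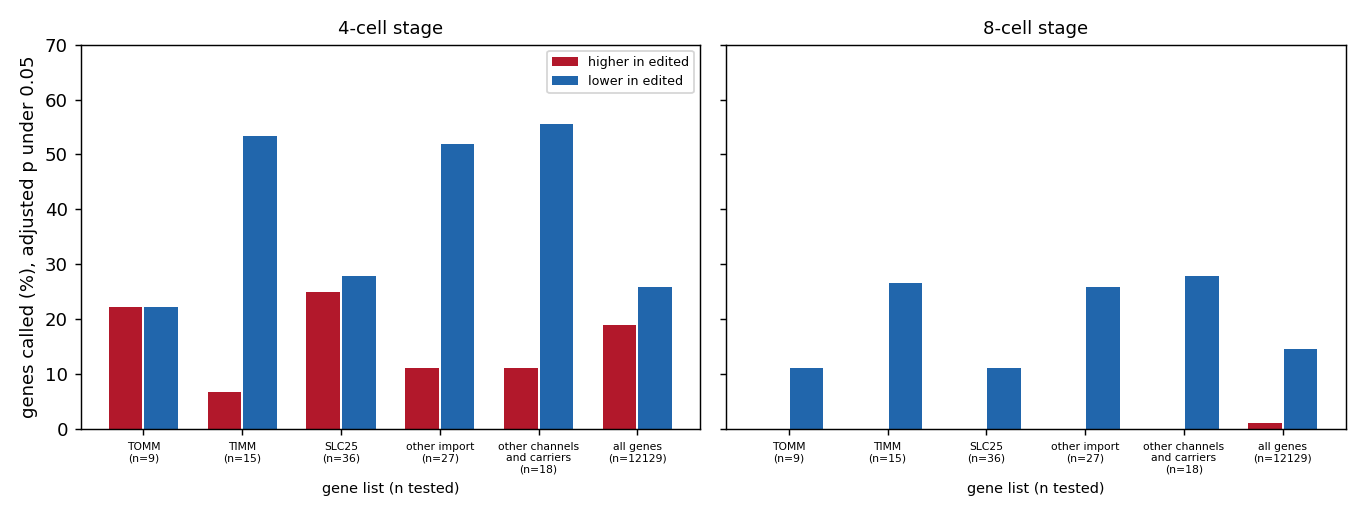
Share of genes called higher (red) or lower (blue) in edited embryos at an adjusted p-value under 0.05 (y axis, percent) in each gene list (x axis, number tested) at the 4-cell and the 8-cell stage. At the 4-cell stage lower calls range from 22.2% of TOMM genes to 55.6% of other channels and carriers, with 25.8% for all genes, and at the 8-cell stage from 11.1% to 27.8%, with 14.5% for all genes.

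By summed CPM the families differed less between libraries than many single members did. The TIMM sum was 1661 and 1420 CPM in 4-cell controls and 1140 and 990 CPM in the edited libraries of that stage. In 8-cell embryos it was 1121 and 1328 CPM in controls against 1220 and 1204 CPM in edited libraries. The TOMM sum lay between 1675 and 2326 CPM and the SLC25 sum between 1752 and 2330 CPM over the 8 libraries. TOMM6 alone held 831 to 1526 CPM in each library and was called in no comparison. Reads of genes with close relatives or processed pseudogenes, such as SLC25A5 and SLC25A6, are uncertain to the extent that counting could split them.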

How the data were processed

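Per the submitters' processing notes, Trim Galore 0.6.7, HISAT2 2.2.1 and featureCounts 2.0.1 were used, and the genome build, annotation and any filter are not given in the sources used here. The authors deposited CPM values although the table is named for raw counts. In 100% of positive values these are whole multiples, within 0.05 reads, of 1 step per library, so whole reads were recovered. Of 12 columns, 4 match no sample given here and were not used. Per the labels' protocols, captured mRNA was copied, amplified as cDNA and tagmented; amplified reads without molecular identifiers are not independent molecules.

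Log2(CPM + 1) of the 12129 genes averaging 1 CPM or more was fitted with limma 3.58.1 (R 4.3.3), with an intensity trend and 1 mean per group over the 8 libraries. P-values were adjusted by the Benjamini-Hochberg method, and fold changes on this scale understate the change of weakly expressed genes. The script was tested on simulated data. edgeR 4.0.16 (14640 genes) and DESeq2 1.42.0 on recovered reads, other pseudocounts, filters and scalings, a replicate block, a marker covariate and leaving out each library were alternatives. The 2 libraries of a group differed by more than sampling noise. Every TIMM and TOMM gene was named, and SLC25 genes by smallest p-value within substrate classes. Up to 3 other import or transport genes per direction were named. CHCHD4, MPC1, TMEM11 and UCP2 were added after their values were seen. The members and lists were chosen with earlier results of these data known. Same-numbered libraries were not taken as pairs. No protein or promoter sequences were used here. The values of 1 member are not reported here.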

Additional observations from a re-analysis of the deposited data

Results flagged for a closer look

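Limma's test of the difference called 4 genes for an editing effect that differed between stages. With edgeR, with no minimum level and with the marker covariate 0 were called. The log2 difference (8-cell minus 4-cell) was 1.85 for SLC25A39, 1.60 for TIMM17B, 1.32 for SLC25A4 and -1.45 for SLC25A51. For SLC25A39, TIMM17B and SLC25A4 the 4-cell log2 fold changes were -3.03, -1.98 and -1.58 and the 8-cell values -1.18, -0.37 and -0.26. For SLC25A51 they were 1.54 and 0.09.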

How the results depend on the processing

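At the 4-cell stage 32 genes were called, and from 29 to 34 under the other pseudocounts, filters, scalings and tests, with 0 under the marker covariate; leaving out 1 library gave 23 to 32. At the 8-cell stage 9 were called, 7 to 10 under those settings, 0 with the covariate and 3 to 10 without 1 library. Without counting the covariate, 17 of the 32 and 3 of the 9 were called under every alternative. Under the covariate SLC25A44 had a 4-cell log2 fold change of -0.0833 and SLC25A37 one of 0.65, against 0.77 and -1.53; the other 30 kept their sign there, some at nearly the same size (SLC25A11 -1.16 against -1.15) with standard errors at least 2.32 times as large, and no other called value changed sign under any alternative run. The cause was not tested.

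For the difference between stages (4 called) the count was 0 with no filter, with edgeR and with the covariate, and 0 to 5 without 1 library. For stage in controls (8 called) it was 5 with a pseudocount of 0.25 CPM, 5 with TMM factors, 2 with the 4 compared libraries alone, and 0 with no filter, with edgeR and with the covariate; without 1 library it was 0 to 10, and 4 without any 1 of the 4 edited libraries. For stage in edited embryos (3 called, all lower) it was 0 with no filter, 0 with edgeR, 6 with the compared libraries alone and 7 with DESeq2. With quantile normalization and with the covariate it was 1 each, a gene called higher, and the 3 lower calls were lost. The count also changed when single libraries were left out.

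Deviations of same-numbered libraries correlated at 0.11 (4-cell), -0.09 (8-cell), -0.30 (control stages) and 0.02 (edited stages), so the numbers were not taken to pair the libraries. With the replicate block the counts were 30, 9, 3, 7 and 1 in the order above. With the 8-cell control numbers crossed in the block, chosen after seeing the data, they were 33, 9, 4, 10 and 6.

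Over all genes the median shift of a gene's log2 fold change under quantile normalization was 0.25 and 0.22 in the 4-cell and 8-cell comparisons. Under TMM factors it was 0.11 in the former. The median of the 60 genes in the 4-cell comparison was then -0.06 and -0.14 against 0.23 and 0.08 for all genes. With 2 libraries a group, the spread between libraries limits these results more than read sampling does. How much of that spread came from the pools or from amplification was not tested.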
